A study of Mus musculus with 15 samples.

Results

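The genes described here are 10 markers of Kupffer cells, the resident macrophages of the liver, measured in endothelial cells sorted from mouse liver. They are Clec4f, Vsig4, Timd4, Cd5l, Marco, C1qa, C1qb, C1qc, Csf1r and Cd68, found on the arrays through the RefSeq accession of each probe, 10 of the 21173 genes with a symbol. Csf1r had 3 probes and each other marker had 1. RNA was measured on 15 one-colour arrays, 3 for each of 5 populations. EC-SP and EC-MP cells came from livers of animals aged 8 weeks, and the labels give these populations only as SP and MP. The other 3 populations were subsets of adult liver endothelium separated by the surface proteins CD157 and CD200: CD157+CD200+, CD157-CD200+ and CD157-CD200-. All 5 were labelled as endothelial cells and no treatment was named. The gates used to remove blood cells, and the strain and sex of the animals, are not given in the sources used here. The samples are called independent by the submitters without naming separate animals, so the spread behind each p-value is that among these samples and may be technical in origin.

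Kupffer cells lie inside the liver sinusoids, attached to the sinusoidal endothelium, and clear bacteria, aged red cells and debris from portal blood. They depend on signalling through the CSF1 receptor, and several of their marker genes encode receptors that bind microbes, complement or dying cells. Sinusoidal endothelial cells share part of this scavenging work and touch Kupffer cells directly. In bulk RNA of a sorted population, fewer cells of a type and less RNA per cell cannot be told apart.

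Levels are log2 signal relative to the 75th percentile of the same array, so 0 is that percentile and 1 unit is a doubling. A spot is called well above background by the image software. The share of spots that reached it ran from 57.3% to 69.4% per array, the 75th percentile lay between 157 and 298 intensity units, and the number of arrays limits the precision. All 7 general endothelial genes were well above background on every array. The sort markers followed the labels: Bst1, which encodes CD157, was higher in CD157+CD200+ than in CD157-CD200- by 5.74 ± 0.25 (SE, limma adjusted p = 5.33e-07), and Cd200 was at least 320-fold higher (adjusted p = 7.86e-09). EC-SP and EC-MP were read on a different scanner from the subsets, so the sets were not tested against each other. A difference is called when its adjusted p, corrected over all features tested in the fit, is under 0.05.

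The promoter windows of Marco, Cd5l and C1qc are shown because these genes were lower in both CD200+ subsets and share a run of letters upstream of their start. These windows are the 250 bases before the RefSeq start site (GRCm38.p6), printed 5′ to 3′ on the strand of the gene. Capitals mark GAGGAAG or its reverse complement CTTCCTC, letters that resemble the core of sites bound by PU.1, the myeloid transcription factor encoded by Spi1. Marco lies on the minus strand (chr1:120505025-120505274), Cd5l on the plus strand (chr3:87357631-87357880) and C1qc on the minus strand (chr4:136892915-136893164).
Marco: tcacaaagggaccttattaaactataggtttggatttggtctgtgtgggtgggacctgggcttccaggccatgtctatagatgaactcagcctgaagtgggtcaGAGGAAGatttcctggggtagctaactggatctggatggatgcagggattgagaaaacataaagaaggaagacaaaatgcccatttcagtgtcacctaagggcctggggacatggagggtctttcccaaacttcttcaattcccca
Cd5l: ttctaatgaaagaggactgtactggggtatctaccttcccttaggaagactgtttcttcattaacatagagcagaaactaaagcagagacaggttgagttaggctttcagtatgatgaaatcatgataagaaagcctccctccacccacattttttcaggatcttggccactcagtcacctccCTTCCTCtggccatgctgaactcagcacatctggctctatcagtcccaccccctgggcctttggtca
C1qc: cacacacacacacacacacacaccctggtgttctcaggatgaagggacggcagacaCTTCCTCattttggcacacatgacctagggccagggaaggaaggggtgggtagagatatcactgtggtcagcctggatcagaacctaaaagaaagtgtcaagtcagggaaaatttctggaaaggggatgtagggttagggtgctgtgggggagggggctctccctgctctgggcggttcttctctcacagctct

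Of the 10 markers, 8 had a window, and 3 of these held GAGGAAG on either strand, against 10.6% of all 32851 windows. The longer run GAGGAAGT, which contains the shorter run, was in the C1qc window alone among the markers and in 2.44% of all windows. Clec4f and Vsig4, which were lower in the same subsets, had windows without either run. A match is a description of these letters and not of a bound site, and other runs of letters were looked at and are not reported. Spi1 itself was near the detection limit, well above background on 0 of 3 EC-SP arrays, 1 of 3 EC-MP arrays and no more than 1 of 3 arrays in any subset.

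The comparison of the CD157 and CD200 subsets addressed how liver endothelium that carries these surface proteins differs from endothelium that lacks them. Most of the tested Kupffer cell markers had their highest mean in CD157-CD200- cells, but not Csf1r. Clec4f, Vsig4, Cd5l, Marco, C1qa and C1qc were lower in CD157+CD200+ cells, by 1.91 to 3.59 log2 units, which is 6 of the 9 markers tested. Across all features 15.2% were called in that comparison, 8.12% higher and 7.11% lower. Of the same markers, 5 were called lower in CD157-CD200+ than in CD157-CD200- cells, where 11.8% of features were called, 6.31% higher and 5.52% lower. The median difference over the 9 tested markers was -2.04 and -1.29 in these comparisons, against 0.007 and 0.0198 over all features. The comparisons share the CD157-CD200- arrays and are given side by side for that reason. The size of the differences depended on the background correction: with normexp at an offset of 50, CD157+CD200+ differed from CD157-CD200- by -0.90 for Clec4f, -0.89 for Vsig4, -0.73 for C1qa and -1.19 for C1qc, and all 4 were still called (adjusted p between 0.00305 and 0.00758). For CD157-CD200+ the normexp differences were -0.67 for Clec4f, -0.86 for Vsig4 and -1.37 for C1qc, also called.

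**Figure D1:**
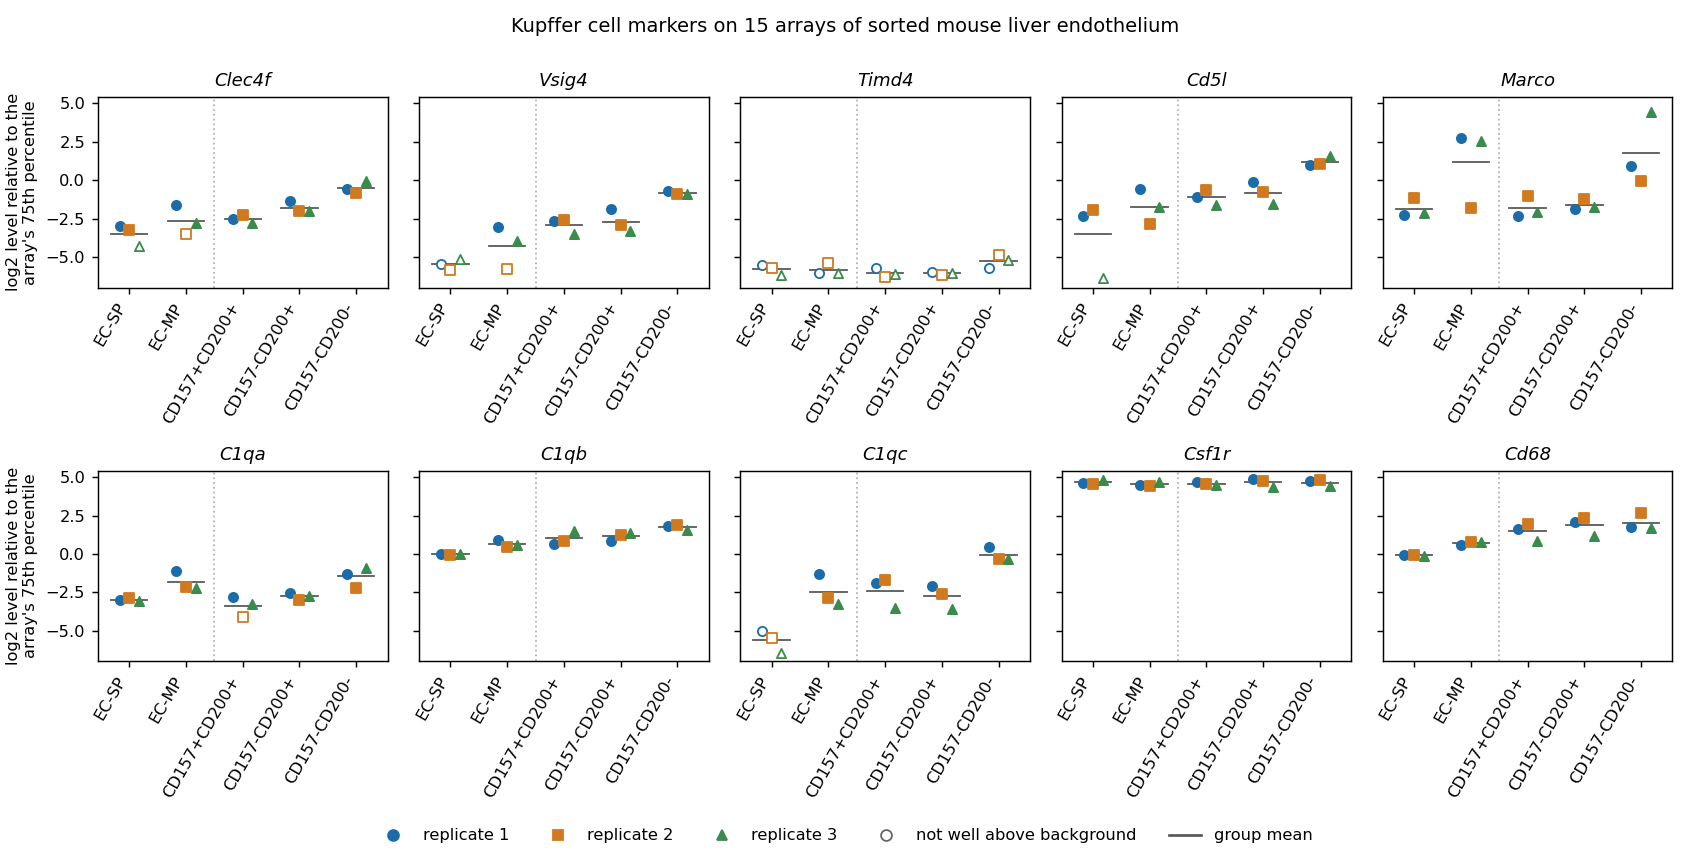
Level of each Kupffer cell marker on each of 15 arrays (y axis: log2 signal relative to the array's 75th percentile), by population, with the replicate as the symbol, the group mean as a line and open symbols for arrays where the probe was not well above background. The dotted line separates arrays read on different scanners, and the 3 CD157-CD200- arrays lie above both CD200+ subsets for Clec4f, Vsig4, Cd5l, Marco, C1qa, C1qb and C1qc.

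Clec4f, a galactose-binding lectin restricted to Kupffer cells in the mouse, separated all 3 subsets. Its level was -2.53, -2.29 and -2.79 in CD157+CD200+ replicates 1 to 3 and -1.35, -1.99 and -2.01 in CD157-CD200+. In CD157-CD200- it was -0.57, -0.85 and -0.06. No array of a subset overlapped another subset. Clec4f was lower in CD157+CD200+ than in CD157-CD200- by a difference of -2.04 ± 0.27 (SE, limma adjusted p = 0.000601) and in CD157-CD200+ by -1.29 ± 0.27 (adjusted p = 0.0113). The latter call was lost with all 15 arrays in 1 fit (adjusted p = 0.0755). Between the CD200+ subsets the difference was -0.75 ± 0.27 and did not pass (adjusted p = 0.407).

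Vsig4 encodes a complement receptor through which Kupffer cells capture C3-coated particles from blood. Its level was -2.63, -2.60 and -3.51 in CD157+CD200+, and -1.86, -2.93 and -3.29 in CD157-CD200+. In CD157-CD200- it was -0.70, -0.91 and -0.91. The CD157-CD200- arrays were close together and above all 6 others, while the CD200+ subsets overlapped. The difference from CD157-CD200- was -2.07 ± 0.37 for CD157+CD200+ (adjusted p = 0.00397) and -1.86 ± 0.37 for CD157-CD200+ (adjusted p = 0.0091).

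Timd4, a phosphatidylserine receptor of long-lived resident macrophages, was not well above background on any of the 15 arrays, so it was not tested. Its spots read between -6.28 and -4.86. The probe gives no order between populations at that signal.

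Cd5l encodes a protein secreted by tissue macrophages that binds lipids and microbial products. It was at -1.09, -0.61 and -1.64 in CD157+CD200+, and at -0.11, -0.79 and -1.55 in CD157-CD200+. In CD157-CD200- it was at 0.98, 1.06 and 1.60. The latter 3 arrays exceeded the 75th percentile and the other 6 did not reach it. The differences were -2.33 ± 0.38 (adjusted p = 0.00245) and -2.03 ± 0.38 (adjusted p = 0.0067) for the CD200+ subsets in the same order. Both calls were lost with all 15 arrays in 1 fit (adjusted p = 0.115 and 0.219).

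Marco, a class A scavenger receptor that binds bacteria, had the widest spread. Its level was -2.34, -1.03 and -2.06 in CD157+CD200+ and -1.88, -1.25 and -1.74 in CD157-CD200+. In CD157-CD200- it was 0.93, -0.02 and 4.42. Replicate 3 of CD157-CD200- stood far above its group, yet all 3 arrays lay above every CD200+ array. CD157+CD200+ was lower than CD157-CD200- by a difference of -3.59 ± 0.93 (adjusted p = 0.0285), or -2.27 without replicate 3 of CD157-CD200- (adjusted p = 0.00817). That call was lost without CD157+CD200+ replicate 1 (adjusted p = 0.0975) or replicate 3 (adjusted p = 0.0769), and without a filter on dim probes (adjusted p = 0.0677). For CD157-CD200+ the difference from CD157-CD200- was -3.40 ± 0.93 (adjusted p = 0.0438), and it missed the threshold with the replicate number, which is also the slide, as a block (adjusted p = 0.0529). It also missed it with normexp, with all 15 arrays in 1 fit and without a filter on dim probes (adjusted p = 0.0584, 0.0766 and 0.101). Without replicate 3 of CD157-CD200- it was -2.08 (adjusted p = 0.0157). It also missed the threshold without any single array of either CD200+ subset, or without CD157-CD200- replicate 1, at adjusted p between 0.0562 and 0.129.

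The 3 C1q chains, which assemble into the recognition subunit that starts the classical complement pathway, did not move by the same amount. C1qb, C1qc and C1qa follow each other along chromosome 4 with no gene between them in the RefSeq table. C1qc was at -1.90, -1.69 and -3.54 in CD157+CD200+ and at -2.11, -2.57 and -3.56 in CD157-CD200+. In CD157-CD200- it was at 0.44, -0.30 and -0.33, above every other subset array. The differences were -2.31 ± 0.52 (adjusted p = 0.0137) and -2.68 ± 0.52 (adjusted p = 0.00746). The first of these was not called without CD157-CD200- replicate 1 (adjusted p = 0.0572).

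C1qa was at -2.76, -4.11 and -3.22 in CD157+CD200+, where replicate 2 was not well above background, and at -2.51, -2.99 and -2.70 in CD157-CD200+. In CD157-CD200- it was at -1.29, -2.19 and -0.89, above all 6 others. It was lower in CD157+CD200+ by a difference of -1.91 ± 0.40 (adjusted p = 0.00916). In CD157-CD200+ the difference was -1.28 ± 0.40 and was not called (adjusted p = 0.073), but it was called with the replicate block (adjusted p = 0.00867), with normexp (adjusted p = 0.0416), without CD157+CD200+ replicate 2 (adjusted p = 0.0421) and without CD157-CD200- replicate 2 (adjusted p = 0.0245).

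C1qb varied less. It was at 0.62, 0.88 and 1.53 in CD157+CD200+, at 0.87, 1.27 and 1.39 in CD157-CD200+ and at 1.80, 1.86 and 1.55 in CD157-CD200-. The groups just failed to overlap, since CD157+CD200+ replicate 3 differed from CD157-CD200- replicate 3 by -0.018. Neither difference was called, at -0.73 ± 0.26 (adjusted p = 0.0957) and -0.56 ± 0.26 (adjusted p = 0.243). Without CD157+CD200+ replicate 3 the first was -0.98 and was called (adjusted p = 0.0226). The first was also called in 1 of the 10 alternatives that kept all arrays (adjusted p = 0.0449).

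Csf1r and Cd68, the markers that are least restricted to Kupffer cells, were not called between the subsets. Csf1r encodes the receptor for CSF1 and IL-34. Its brightest probe was at 4.66, 4.54 and 4.47 in CD157+CD200+, at 4.86, 4.74 and 4.39 in CD157-CD200+ and at 4.75, 4.80 and 4.40 in CD157-CD200-. The difference between CD157+CD200+ and CD157-CD200- was -0.09, with a 95% interval from -0.52 to 0.34. The other 2 Csf1r probes gave group means from -3.26 to -0.43, and none of the 3 probes was called in any comparison. The sign of the Csf1r difference depended on the probe in every comparison except this one. Cd68, a lysosomal membrane protein of macrophages, was at 1.63, 1.98 and 0.87 in CD157+CD200+, at 2.06, 2.32 and 1.20 in CD157-CD200+ and at 1.75, 2.65 and 1.68 in CD157-CD200-. These groups overlapped, and the difference between the outer subsets was -0.53, with a 95% interval from -1.42 to 0.35 (adjusted p = 0.473). On the 3 slides this Cd68 difference was -0.12, -0.67 and -0.80, and with the replicate block its adjusted p was 0.0581.

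**Figure D2:**
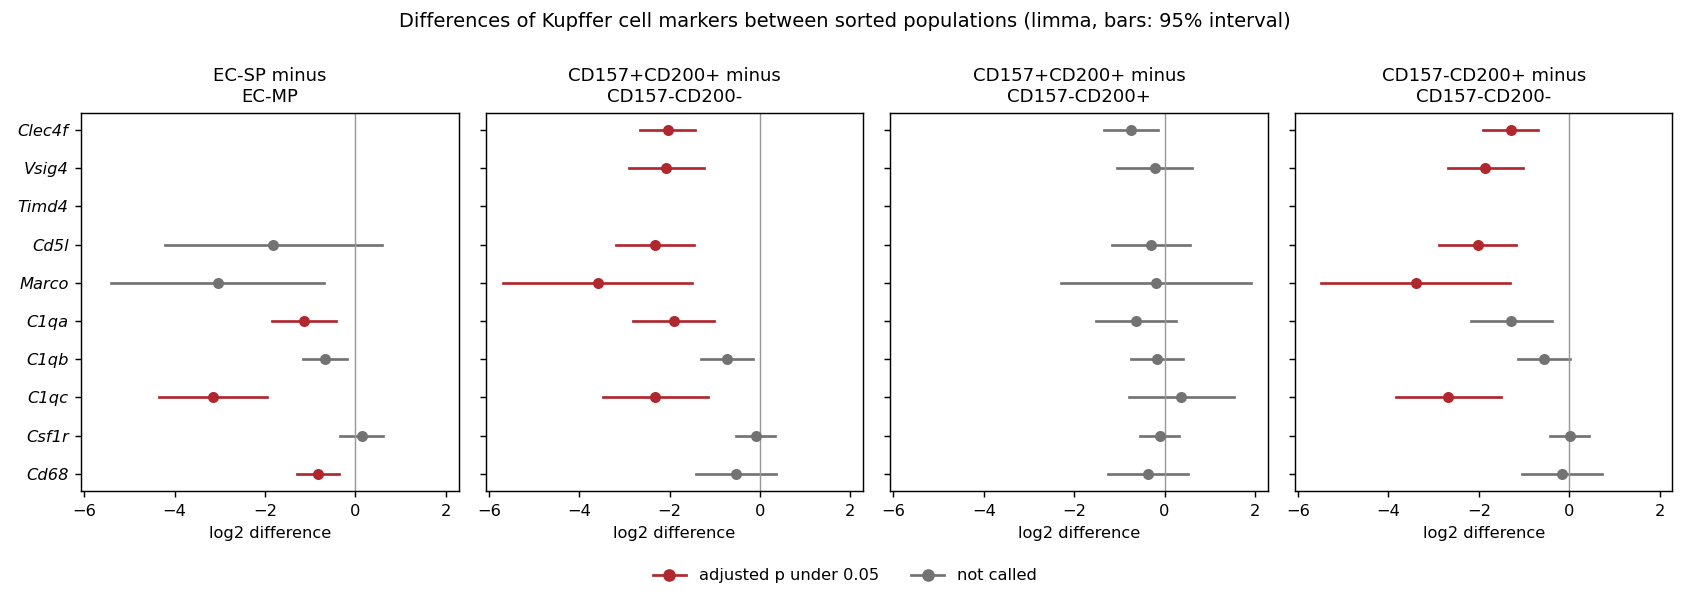
Log2 difference of each tested marker in the 4 comparisons (x axis), as the limma estimate with its 95% interval; red points were called at an adjusted p under 0.05. Intervals for Clec4f, Vsig4, Cd5l, Marco and C1qc lie below 0 in both comparisons with CD157-CD200-, and no marker was called between the CD200+ subsets.

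Between the CD200+ subsets, which differ in CD157, limma called 0 of 9 tested markers, and 1 marker had an unadjusted p under 0.05. In the same comparison 1.05% of all features were called, 0.802% higher and 0.245% lower, and 8.57% had an unadjusted p under 0.05. The median difference of the markers was -0.22. Clec4f was the single marker with an unadjusted p under 0.05 and with groups that did not overlap, with CD157+CD200+ below, as for 7.19% of features. The widest interval was that of Marco, from -2.29 to 1.91, which does not exclude a difference of several-fold in either direction. Its width rests on a spread estimated over all 9 subset arrays, among them CD157-CD200- replicate 3 at 4.42. The SD of Marco was 0.69 in CD157+CD200+ and 0.33 in CD157-CD200+. The interval of Vsig4 ran from -1.05 to 0.61 and that of Cd5l from -1.16 to 0.56.

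The order of the group means was the same for most markers. By group mean, CD157+CD200+ was lowest, CD157-CD200+ intermediate and CD157-CD200- highest for Clec4f, Vsig4, Cd5l, Marco, C1qa, C1qb and Cd68. The CD200+ subsets overlapped for all of these except Clec4f. In replicate 2 CD157+CD200+ was the higher of them for Vsig4, Cd5l and Marco, by 0.33, 0.18 and 0.22, and in replicate 3 for C1qb, by 0.14. C1qc was lowest in CD157-CD200+, at -2.74 ± 0.74 (SD, n = 3) against -2.37 ± 1.01 in CD157+CD200+, and these neighbours did not differ beyond their spread. The neighbours CD157-CD200+ and CD157-CD200- differed beyond their spread for 7 of the 9 tested markers, in the sense that every CD157-CD200+ array lay below every CD157-CD200- array, which held for 12.1% of features. For CD157+CD200+ against CD157-CD200- this was the case for 7 of 9 markers and 13.8% of features.

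EC-SP and EC-MP were compared to find genes that mark the population in which endothelial stem cells were sought. C1qc, C1qa and Cd68 were lower in EC-SP, which is 3 of the 7 markers tested, while 16.5% of all features were called in that comparison, 9.15% higher and 7.39% lower. Csf1r, C1qb, Marco and Cd5l were tested and not called. Clec4f, Vsig4 and Timd4 did not pass the filter on dim probes, since none of them was well above background on all 3 arrays of either group, and were left out. C1qc and Cd5l passed it through EC-MP alone, with 0 and 2 of 3 EC-SP arrays well above background. For these markers, both among the 7 tested, the filter itself favoured a lower value in EC-SP. Without that filter all 10 were tested and 1 was called, beside 2284 of 36786 features. The median difference of the 7 tested markers was -1.14, against -0.0028 over all features. Every EC-SP array lay below every EC-MP array for 4 of the 7 (C1qa, C1qb, C1qc and Cd68), as for 15.9% of features.

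C1qc read -5.00, -5.45 and -6.42 in EC-SP, where no array was well above background, and -1.31, -2.89 and -3.24 in EC-MP. EC-SP was thus lower by at least 2.6-fold, and the fitted difference had an adjusted p of 0.00409. C1qa was at -2.99, -2.87 and -3.03 in EC-SP and at -1.12, -2.15 and -2.21 in EC-MP, a difference of -1.14 ± 0.31 (adjusted p = 0.0374). The EC-SP arrays were tightly grouped for C1qa but spanned 1.42 for C1qc, and EC-MP replicate 1 was the highest for both genes. Under a normexp background correction with an offset of 50, the differences of C1qc and C1qa shrank to -0.68 (adjusted p = 0.0675) and -0.42 (adjusted p = 0.165). The C1qa call was also lost with quantile normalization, with all 15 arrays in 1 fit and without the filter (adjusted p = 0.0552, 0.0543 and 0.109).

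C1qb was at -0.01, -0.09 and 0.02 in EC-SP and at 0.88, 0.46 and 0.59 in EC-MP. Its difference of -0.68 ± 0.22 missed the threshold (adjusted p = 0.0655). It passed in 3 of the 10 alternatives that kept all arrays, with a lowest adjusted p of 0.0261. The replicate block was among these 3 (adjusted p = 0.0428). Cd68 was at -0.07, -0.09 and -0.12 in EC-SP and at 0.62, 0.77 and 0.80 in EC-MP, a difference of -0.82 ± 0.20 (adjusted p = 0.0246). Both groups were tight for Cd68 and far apart relative to that spread. The Cd68 call was nonetheless lost on leaving out any single array, at adjusted p between 0.0597 and 0.0751, and without the filter or with all 15 arrays in 1 fit (adjusted p = 0.0759 and 0.106). The C1qa call was lost without EC-SP replicate 1, 2 or 3 or EC-MP replicate 1, at adjusted p between 0.0854 and 0.0916, which left C1qc as the single marker called in each of those 4 cases.

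Csf1r did not separate these populations by its brightest probe. It was at 4.64, 4.58 and 4.84 in EC-SP and at 4.52, 4.44 and 4.68 in EC-MP, with a difference of 0.15 and a 95% interval from -0.33 to 0.62.

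Marco, Cd5l, Clec4f and Vsig4 were uneven among the EC-MP arrays, and EC-MP replicate 2 was the lowest of the 3 for each. That array was also the lowest for C1qb and Csf1r, by smaller margins. Marco was at 2.77 in replicate 1 and 2.57 in replicate 3 but at -1.80 in replicate 2, and in EC-SP it was at -2.27, -1.18 and -2.15. On slides 1 and 3 EC-SP was lower than EC-MP by differences of -5.04 and -4.72, and on slide 2 it was higher by 0.62. The difference over all 6 arrays was -3.05 ± 1.04 (adjusted p = 0.0816), and without EC-MP replicate 2 it was -4.54 (adjusted p = 0.000348).

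Cd5l was at -2.32, -1.91 and -6.35 in EC-SP, where replicate 3 was not well above background, and at -0.56, -2.83 and -1.74 in EC-MP. The groups overlapped and the difference was -1.81 ± 1.06 (adjusted p = 0.298). Without EC-SP replicate 3 it was -0.40 (adjusted p = 0.705). Clec4f read -2.99, -3.25 and -4.29 in EC-SP and -1.64, -3.48 and -2.80 in EC-MP, with 2 arrays of each group well above background. Vsig4 was well above background on no EC-SP array and on EC-MP replicates 1 and 3, at -3.02 and -3.98, with -5.76 on EC-MP replicate 2.

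**Figure D3:**
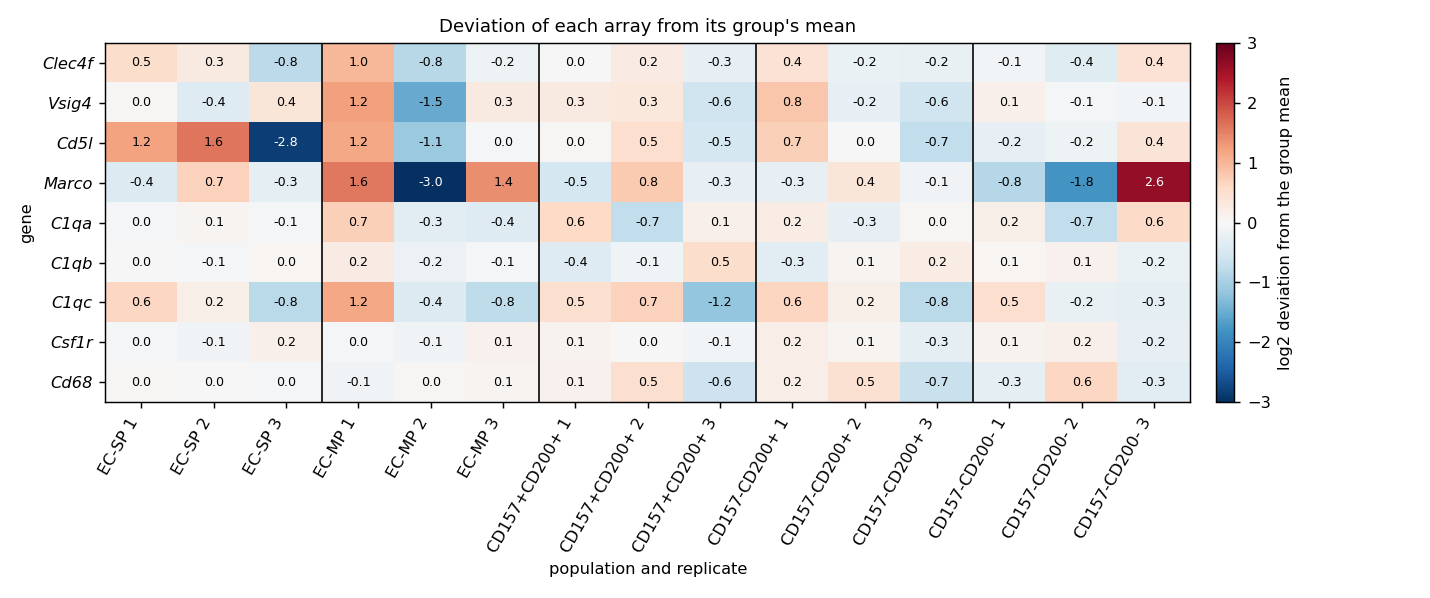
Deviation of each array from the mean of its group in log2 units (colour and printed value), for the 9 markers detected in at least 1 group (y axis) and the 15 arrays by population and replicate (x axis). EC-MP replicate 2 was furthest below its group mean for Marco, Vsig4, Cd5l and Clec4f. It was also below it, by smaller amounts, for C1qa (-0.32), C1qb (-0.19), C1qc (-0.41) and Csf1r (-0.10). Marco in CD157-CD200- replicate 3 was 2.64 above its group mean.

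Within groups the markers varied together only in part. Over the 15 arrays, after removal of the group means, the correlations of the 36 pairs among 9 markers had a median of 0.22 and ran from -0.56 to 0.84, with Clec4f and Cd5l at the upper end. The arrays of a slide share a hybridisation, and removing the means of 3 arrays leaves few independent values, so these correlations are descriptions. The summed level of the markers other than Csf1r, on a linear scale where 1 is the 75th percentile, was 13.8 to 33.4 in CD157-CD200-, 6.17 to 9.10 in CD157-CD200+ and 5.72 to 7.67 in CD157+CD200+. It was 4.002 to 12.19 in EC-MP and 2.398 to 2.888 in EC-SP. Marco alone made up much of the highest sums. It stood at 2143% of the 75th percentile in CD157-CD200- replicate 3, and at 681.5% and 594.2% in EC-MP replicates 1 and 3.

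Genes of the wider macrophage programme went both ways. For the lists below, 7.11% of all features were called lower and 8.12% higher in CD157+CD200+ against CD157-CD200-. In EC-SP against EC-MP these shares were 7.39% and 9.15%. Of 13 other genes of resident Kupffer cells 10 were tested, and 3 were called lower and 2 higher in CD157+CD200+ than in CD157-CD200-, with a median of -0.20. The iron exporter Slc40a1 differed by -5.27 ± 0.20 (limma adjusted p = 3.07e-07), from -1.64, -1.64 and -1.53 in CD157+CD200+ to 3.96, 3.45 and 3.61 in CD157-CD200-. The folate receptor gene Folr2 differed by -1.74 ± 0.30 (adjusted p = 0.00335) and the haem-degrading enzyme gene Hmox1 by -1.16 ± 0.17 (adjusted p = 0.00138). The oxysterol receptor gene Nr1h3, which acts in Kupffer cell identity, was higher by 1.87 ± 0.26 (adjusted p = 0.00084). Adgre1, which encodes F4/80, differed by -0.20 ± 0.34 (adjusted p = 0.812). Cd163, a haemoglobin scavenger receptor, was well above background on 0 of the 15 arrays. In EC-SP against EC-MP, 1 of the 10 tested genes was called lower (Slc40a1, -3.51 ± 0.35, adjusted p = 0.000303) and 1 higher (Hmox1, 0.76 ± 0.21, adjusted p = 0.0388).

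Among 24 macrophage and pan-myeloid genes, 22 were tested in the subsets, and 6 were called lower and 1 higher in CD157+CD200+ than in CD157-CD200-, with a median of -0.45. Over all features 7.11% were called lower and 8.12% higher there. The called genes of this list included the scavenger receptor gene Msr1 (-2.91 ± 0.17, adjusted p = 3.18e-06) and the actin-binding gene Aif1 (-2.28 ± 0.34, adjusted p = 0.00144). The Fc receptor gene Fcgr3 differed by -5.36 ± 0.26 (adjusted p = 1.07e-06), and its sequence resembles that of Fcgr2b, which sinusoidal endothelium carries. The part of this resemblance in the Fcgr3 signal was not tested. Ptprc, which encodes the leukocyte antigen CD45, differed by -0.19 ± 0.42 (adjusted p = 0.864), and by 0.26 ± 0.24 in EC-SP against EC-MP (adjusted p = 0.544). In the latter comparison 17 were tested, and Fcgr3 and Fcer1g were called lower and Cd14 and Lcp1 higher in EC-SP, so that 2 fell and 2 rose. The myeloid genes Lyz2 (-0.41 ± 0.34, adjusted p = 0.534), Laptm5 (-0.07 ± 0.26, adjusted p = 0.928) and Mpeg1 (-0.35 ± 0.18, adjusted p = 0.274) were not called between CD157+CD200+ and CD157-CD200-. These 3 genes, Adgre1, Folr2 and Lcp1 were named after their values were seen.

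The genes that signal to Kupffer cells were split. Of 8 ligand and niche genes 7 were tested in the subsets. Csf1, a ligand of the CSF1 receptor, was lower in CD157+CD200+ than in CD157-CD200- by a difference of -1.22 ± 0.25 (adjusted p = 0.00775), while Il34, the other ligand, was higher by 2.11 ± 0.51 (adjusted p = 0.0205). The Notch ligand gene Jag1 was higher by 2.80 ± 0.19 (adjusted p = 7.75e-06). In EC-SP, Jag1 (1.58 ± 0.26, adjusted p = 0.0037) and Dll4 (1.91 ± 0.27, adjusted p = 0.00183) were higher than in EC-MP, and none of the 6 tested genes was called lower.

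Complement genes other than C1q went both ways. Of 13 tested, 2 rose and 2 fell in CD157+CD200+ against CD157-CD200-, and 3 rose and 4 fell in EC-SP against EC-MP. Serping1, which encodes the inhibitor of the C1 complex, rose by 2.82 ± 0.17 (adjusted p = 4.5e-06), whereas C2 differed by -2.57 ± 0.30 (adjusted p = 0.000278) and the decay-accelerating factor gene Cd55 by -2.22 ± 0.15 (adjusted p = 9.08e-06). Among 12 genes for the clearance of dying cells, 4 fell and 1 rose. Stab1 and Stab2 were among those that fell, and both also belong to the sinusoidal list described below, so these lists are not separate results. Stab2 differed by -7.07 ± 0.19 (adjusted p = 5.64e-08). Mertk, a receptor kinase for apoptotic cells, differed by -2.70 ± 0.25 (adjusted p = 5.75e-05), and Elmo1, an adaptor for engulfment, was higher by 4.62 ± 0.43 (adjusted p = 6.31e-05). Elmo1 was well above background on 1 of 3 CD157-CD200- arrays, so the size of its difference rests partly on signal near the floor.

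**Figure D4:**
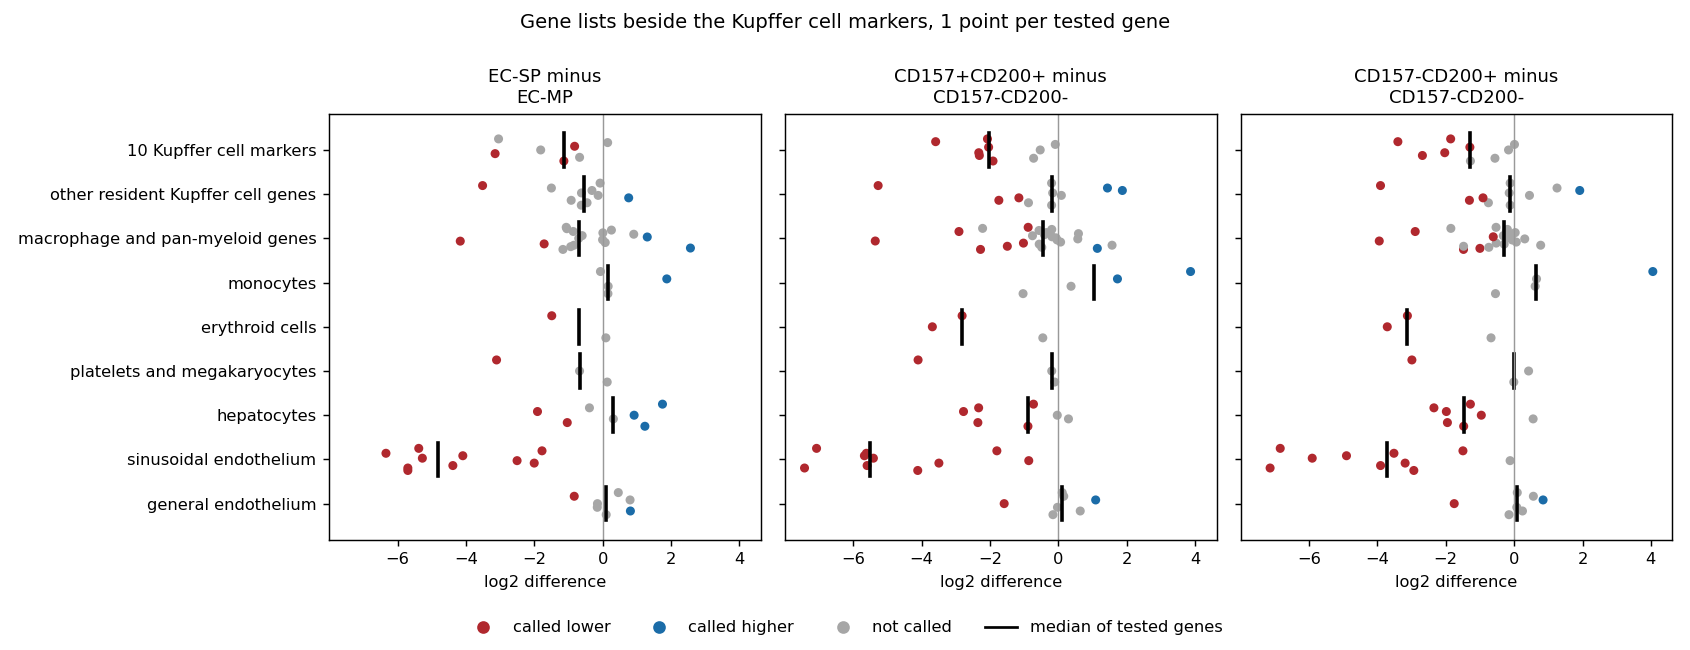
Log2 difference of each tested gene (x axis, 1 point per gene) for the 10 Kupffer cell markers and 8 other gene lists (y axis) in 3 comparisons, coloured by whether the gene was called, with the median of each list as a black bar. Sinusoidal genes lie furthest to the left, with medians of -4.83, -5.50 and -3.71, and erythroid, platelet and hepatocyte genes include genes called lower in the CD200+ subsets.

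Genes of other cell types moved in the same comparisons as the Kupffer cell markers. All 10 sinusoidal endothelial genes were lower in EC-SP than in EC-MP and in CD157+CD200+ than in CD157-CD200-, and 9 of 10 in CD157-CD200+ than in CD157-CD200-. Their summed level was 826 to 1127 in CD157-CD200-, 134 to 168.5 in CD157-CD200+ and 70.9 to 94.8 in CD157+CD200+, and it was 274 to 496 in EC-MP and 16.5 to 18.9 in EC-SP. Of 4 erythroid genes 3 were tested in the subsets and 2 fell, among them Hba-a1, an alpha globin gene, by a difference of -3.69 ± 0.32 (adjusted p = 4.21e-05). The other, Hbb-b1, passed the filter through CD157-CD200- alone, with 0 of 3 arrays of each CD200+ subset well above background. The summed erythroid level was 10.6 to 20.2 in CD157-CD200- and 1.01 to 1.58 in the CD200+ subsets. Pf4, a platelet chemokine gene, differed by -4.10 ± 0.71 (adjusted p = 0.0034), as 1 of 3 tested platelet genes. Of 8 hepatocyte genes 7 were tested and 5 fell, with a summed level of 23.1 to 37.7 in CD157-CD200-, 10.2 to 13.2 in CD157-CD200+ and 11.7 to 14.7 in CD157+CD200+. In EC-SP against EC-MP, Pf4 (-3.10 ± 0.72, adjusted p = 0.019) and Hba-a1 (-1.49 ± 0.34, adjusted p = 0.0175) also fell, while 3 hepatocyte genes rose and 2 fell. Pf4 and Fgb, a hepatocyte gene that fell, passed the filter there through EC-MP alone, each with 1 of 3 EC-SP arrays well above background. For these genes, and for Hbb-b1 in the subsets, the filter itself favoured the direction found. The cholangiocyte list had 4 of 6 tested genes called higher in EC-SP and none called in the subsets, and the stellate list had 2 higher and 2 lower of 6 in CD157+CD200+ against CD157-CD200-. Of 7 general endothelial genes, Pecam1 was called higher (1.09 ± 0.16, adjusted p = 0.00145) and Kdr lower (-1.59 ± 0.20, adjusted p = 0.00041) between the same subsets. Emcn was called higher (0.81 ± 0.21, adjusted p = 0.0293) and Tek lower (-0.83 ± 0.24, adjusted p = 0.0431) in EC-SP than in EC-MP. The part of these lists in the differences of the Kupffer cell markers was not tested.

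The T cell, B cell and NK cell lists had 3, 1 and 2 tested genes in the subsets, and none was called in any of the 4 comparisons. Among monocyte genes, Plac8 was higher in CD157+CD200+ than in CD157-CD200- by 3.86 ± 0.31 (adjusted p = 2.29e-05) and Nr4a1 by 1.73 ± 0.34 (adjusted p = 0.00726), and none of the 4 tested was called lower. Of 8 neutrophil genes 2 were tested, and S100a9 was higher in the same comparison by 1.81 ± 0.45 (adjusted p = 0.0235). Its difference was 3.52, 1.35 and 0.55 on slides in replicate order. The other tested gene, Csf3r, was not called. Over all arrays S100a8 and Ngp were each well above background on 1, Cxcr2 on 2, and Retnlg and Mmp8 on 0. Of 4 tested dendritic cell genes 2 were called lower, Zbtb46 (-1.23 ± 0.18, adjusted p = 0.0012) and Clec9a (-1.41 ± 0.38, adjusted p = 0.0322).

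The genes whose pattern over the 15 arrays was most like the mean of the 9 detected markers were Cd302, Sntb1, Lbh, Lpcat1 and Gchfr, with Pearson r between 0.920 and 0.931. Each array set was centred on its own mean first, and 14145 named genes were ranked, with a median r of 0.0059 and a 99th percentile of 0.861. Cd302, a C-type lectin gene, differed by -1.30 between CD157+CD200+ and CD157-CD200- (group means -0.26 and 1.04, adjusted p = 0.000413). Gchfr, which encodes the regulator of GTP cyclohydrolase, had group means of -2.01 and 1.30 (adjusted p = 4.18e-06). These r values are descriptions, since the group differences and the slides are shared by all genes.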

How the data were processed

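The files were the scanner output of 15 one-colour Agilent arrays. Total RNA was amplified and labelled with Cy3, per the labels' protocols. The intensity values (gProcessedSignal) were background-subtracted spot brightness as deposited, made with Agilent Feature Extraction 10.10.1.1 or 11.5.1.1 per the file headers. In the series table deposited by the authors each value was the scanner intensity times 1 constant per array (5.46 to 10.1), linear and not centred; no source used here gives the basis of the constant, and its column medians, replicates 1 to 3, were as follows. EC-SP had 256.5, 299.6 and 286.1. EC-MP had 299.5, 331.2 and 335.4. The CD157+CD200+ columns had 255.8, 278.4 and 252.3. Those of CD157-CD200+ had 265.02, 292.99 and 262.75, whereas CD157-CD200- had 218.3, 296.6 and 238.5.

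Each array was scaled as log2 of the intensity minus log2 of its 75th percentile, after control spots and outliers (110 to 213 spots per array) were left out; no spot was saturated. The 55681 probes were named through RefSeq accessions (GRCm38.p6); 28059 had a symbol, for 21173 genes. The probe with the highest mean signal stood for a gene, and unnamed probes were grouped by accession, a choice made after results were seen. A feature was tested if 1 group or more had it well above background on each of 3 arrays (23971 for EC-SP and EC-MP, 23701 for the subsets) with limma 3.58.1 (lmFit, eBayes) in R 4.3.3, separately for the 6 and the 9 arrays, with Benjamini-Hochberg adjustment over all features of a comparison. The script was tested on simulated data, and figures used Python 3.11.15 and matplotlib 3.10.9. At least N-fold values set the bright group's mean against the dim group's detection floor, the higher of the lowest signal well above background and the probe's own signal on each array.

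Replicate numbers mark slides per the file headers, and same-numbered arrays deviated together over all features (r 0.273 to 0.331 over 3 pairs and 0.270 to 0.628 over 9), so a fit with the number as a block was an alternative. The others were normexp background correction, quantile normalization, the median of detected probes as the scale, the series table, other filters, the mean of a gene's probes, all 15 arrays in 1 fit and leaving out each array. Besides the markers, the text names up to 3 called genes per list with the lowest adjusted p in a comparison, or the lowest p where none was called, and the 5 genes nearest in pattern. Markers and lists were chosen with earlier results of these data known.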

Additional observations from a re-analysis of the deposited data

How the results depend on the processing

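Of the results recomputed under the alternatives other than leaving out an array, 310 kept direction and side of the threshold, 15 fell short of it, 8 newly passed it and 10 changed sign; with each array left out the counts were 250, 20, 4 and 11. The count of called markers fell from 3 to 1 for EC-SP against EC-MP without a filter on dim probes and with all 15 arrays in 1 fit, and from 5 to 3 for CD157-CD200+ against CD157-CD200- with all 15 arrays. Features called for EC-SP against EC-MP fell to 2284 of 36786 without that filter, and were 4897 of 25062 with all 15 arrays in 1 fit. With the replicate block, which pairs arrays of 1 slide, features called rose to 6923 and 5280 for CD157+CD200+ and CD157-CD200+ against CD157-CD200-, and from 248 to 725 between the CD200+ subsets. The block changed no marker call other than those of C1qb, C1qa and Marco given above. Between the CD200+ subsets 376 features were called with normexp and 159 where every array had to be well above background. With the series table the share of calls for EC-SP against EC-MP that were higher was 39.8%, against 55.3% as reported, with a median of all features of -0.166, and Csf1r, at -0.018 there, lay above that median. Csf1r changed sign for EC-SP against EC-MP with quantile normalization (-0.0921), the series table (above) and its probe 2 (-0.24). It did so between the CD200+ subsets with the mean of its probes (0.0998), probe 1 (0.31) and probe 2 (0.0956), and for CD157-CD200+ against CD157-CD200- with quantile normalization (-0.022), the mean (-0.33), probe 1 (-0.65) and probe 2 (-0.36). The cause was not tested.

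Leaving out 1 array gave 1 to 3 called markers for EC-SP against EC-MP, with 1 without EC-SP replicate 1, 2 or 3 or EC-MP replicate 1 and 2 without EC-MP replicate 3. It gave 5 to 6 and 4 to 6 for CD157+CD200+ and CD157-CD200+ against CD157-CD200-, and 0 between the CD200+ subsets. There the features called ran from 103 to 262, with 103 and 111 without CD157+CD200+ replicates 1 and 2 and 128 and 136 without CD157-CD200+ replicates 1 and 2. Differences near 0 changed sign: between the CD200+ subsets Vsig4 ran from -0.52 to 0.20, Cd5l from -0.67 to 0.0551, Marco from -0.58 to 0.0745, C1qb from -0.42 to 0.0282 and C1qc from -0.0353 to 0.95, and between CD157-CD200+ and CD157-CD200- Csf1r ran from -0.11 to 0.15 and Cd68 from -0.39 to 0.17. The use of gMedianSignal for normexp, single Csf1r probes and ungrouped unnamed probes were chosen after seeing the data. Timd4, and C1qc and Vsig4 in EC-SP, lay at background, which limits them to bounds.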
